A study of Mus musculus with 9 samples.

Results

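The comparison described here pooled both altered Svil genotypes and set them against wild type, in tibialis anterior muscle of mice. It used 9 libraries, which are all the libraries of the series: 3 labelled WT, 3 labelled Svil-KO and 3 labelled Svil-Mut. The last 2 groups are called the 6 Svil-altered libraries below. Each library came from the left tibialis anterior, a shin muscle made mostly of fast-twitch fibres, of a male mouse of 13 months. No group had a further treatment label, and all libraries carried batch label 1. The labels leave unsaid where in Svil the change lies in either genotype, how many founder animals or clones lie behind it, or in which cells the change is present. Reverse transcription started from an oligo(dT) primer, and the amplified cDNA was tagmented. Strand is not kept in such libraries, so genes that overlap on opposite strands cannot be told apart.

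Supervillin, the protein made from Svil, is a large membrane-associated member of the villin and gelsolin family. It binds actin filaments and non-muscle myosin II at the plasma membrane. In striated muscle, longer muscle forms of the protein are found at costameres, the sites where the outermost myofibrils attach to the cell membrane.

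Of 56805 genes in the deposited table, 15279 reached a normalized count of 10 in at least 3 of the 9 libraries and were compared. A normalized count is the number of reads on a gene divided by a size factor for the library's depth. Libraries held 36234428 to 48762188 reads. All 14 genes of a list of muscle fibre markers were among the genes compared, and their summed normalized count was 6524102 to 6968556 in WT, 6609843 to 7461775 in Svil-KO and 7538074 to 8233210 in Svil-Mut libraries. The 10 most abundant genes took 27.6% to 28.8% of reads in Svil-Mut, above the WT libraries (24.6% to 25.8%), whereas the Svil-KO libraries (24.4% to 26.7%) overlapped WT. The replicates are separate mice, per the labels.

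Every gene was asked a pair of questions. The first was whether the mean of the Svil-KO and Svil-Mut log2 levels differed from WT, which was tested with limma on log2(normalized count + 1). The call needed a Benjamini-Hochberg adjusted p under 0.05 over all genes compared. The second was whether the gene lay on the same side of WT in both genotypes. A pooled mean can be moved by 1 genotype alone. For most genes the fold changes or normalized counts of Svil-KO and Svil-Mut are therefore given beside the pooled value. Both genotypes were compared with the same 3 WT libraries, so a WT library that lies high or low on a gene moves both fold changes the same way. Counts of genes on 1 side of WT are therefore descriptions without a test.

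Svil fell in the Svil-altered muscles and was the one gene that passed the pooled test and had all 6 altered libraries on 1 side of WT. Its normalized count was 8686, 9373 and 8407 in WT replicates 1, 3 and 4. It was 7402, 6746 and 6656 in Svil-KO replicates 1, 3 and 4, and 4615, 3939 and 4582 in Svil-Mut replicates 1, 2 and 4. The 3 genotypes did not overlap, with Svil-KO between WT and Svil-Mut in every library. The pooled log2 fold change was -0.68 ± 0.07 (SE), with a 95% interval of -0.84 to -0.52 (limma adjusted p = 0.0114). It was -0.35 in Svil-KO and -1.01 in Svil-Mut, and the difference between the genotypes also passed (0.67, 95% interval 0.48 to 0.86, limma adjusted p = 0.0261). An exact 2-sided permutation test of 6 against 3 libraries gave p = 0.0238, the smallest value that its 84 splits allow. Any gene with all 6 altered libraries on 1 side of WT gets this value, so it adds nothing to the separation. The normalized count of Svil (GRCm38 chromosome 18, 4920540 to 5119299, plus strand) stayed at 3939 or more in every library of both altered genotypes. The call was lost when WT replicate 1 (adjusted p = 0.0899), WT replicate 3 (0.112), WT replicate 4 (0.0726), Svil-KO replicate 3 (0.0580) or Svil-KO replicate 4 (0.0593) was left out. It was also lost without a variance trend in the model (0.168) and when the 6 altered libraries were fitted as 1 group (0.930).

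The other genes that passed the pooled test, Mib1 and Fos, stood apart from WT in Svil-Mut, while their Svil-KO libraries overlapped WT. In all, 3 of 15279 genes passed (0.0196%), 1 higher (0.00654%) and 2 lower (0.0131%), while 889 genes (5.82%) had an unadjusted p under 0.05. Mib1, which encodes a ubiquitin ligase that acts on Notch ligands, lies on the same chromosome as Svil (GRCm38 chromosome 18, 10725548 to 10818704, plus strand). Its normalized count was 9818, 7634 and 8474 in WT, 9896, 4939 and 8127 in Svil-KO and 547, 623 and 496 in Svil-Mut. Svil-KO overlapped WT, and every Svil-Mut library was far below both. The pooled log2 fold change of Mib1 was -2.09 ± 0.18 (SE, limma adjusted p = 0.00408), made of -0.23 in Svil-KO and -3.96 in Svil-Mut.

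Fos, an immediate early gene whose product is a subunit of the transcription factor AP-1 (GRCm38 chromosome 12, 85473890 to 85477273, plus strand), rose in the pooled comparison. Normalized counts were 287, 214 and 167 in WT, 245, 284 and 185 in Svil-KO and 2740, 2732 and 2418 in Svil-Mut. Svil-KO lay within the WT range, and the Svil-Mut libraries stood apart. The pooled log2 fold change of Fos was 1.85 ± 0.18 (SE, limma adjusted p = 0.0065), with 0.11 in Svil-KO and 3.59 in Svil-Mut. The exact 2-sided permutation p of 6 against 3 libraries was 0.167 for Mib1 and 0.190 for Fos. Without WT replicate 3, Fos no longer passed (adjusted p = 0.0756) and Mib1 alone remained called. Without the variance trend (adjusted p = 0.0778 each) and with the altered libraries as 1 group (0.930 each), neither passed. The difference between Svil-KO and Svil-Mut passed for both (3.73 for Mib1 and -3.48 for Fos, limma adjusted p = 4.78e-05 each). It passed for 7 of 15279 genes in all (0.0458%).

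**Figure D1:**
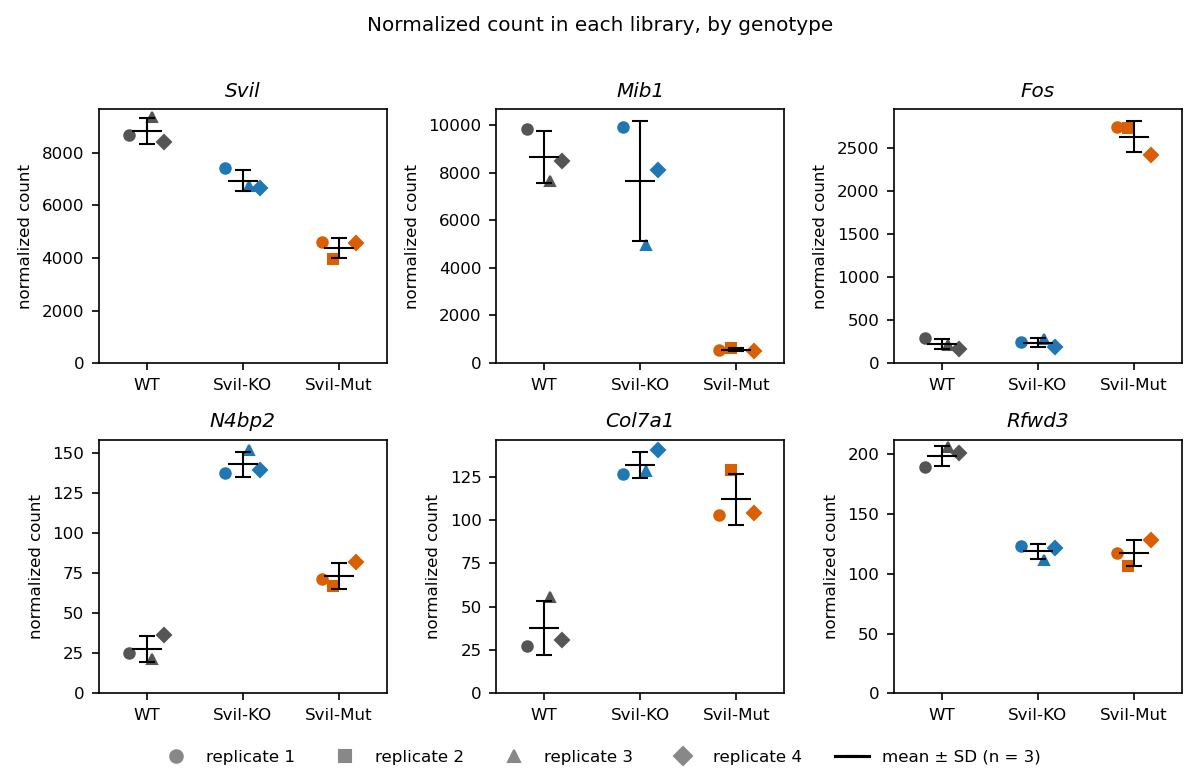
Normalized count (vertical axis, from 0) of 6 genes in each library, by genotype, with the replicate number as the symbol and mean ± SD (n = 3) in black. Svil and Rfwd3 were below WT, and N4bp2 and Col7a1 above it, in all 6 Svil-altered libraries, while Mib1 and Fos stood apart from WT in Svil-Mut.

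No gene passed a test that asked for a difference from WT in each genotype. This test took the larger of the limma p-values of Svil-KO and Svil-Mut where both had the same sign. After adjustment 0 of 15279 genes passed (0%), and 151 (0.988%) had an unadjusted value under 0.05, 100 of them higher (0.654%) and 51 lower (0.334%). The count was also 0 with edgeR's quasi-likelihood test and with DESeq2 on the recovered reads. The smallest unadjusted value, 0.000384, belonged to Col7a1. Taken singly, Svil-KO against WT gave 0 adjusted calls (0%) and 628 genes with an unadjusted p under 0.05 (4.11%), and Svil-Mut against WT gave 6 (0.0393%) and 1533 (10%).

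On 1 side of WT in both genotypes lay 9700 genes (63.5%), 4848 above (31.7%) and 4852 below (31.8%). A further 2887 (18.9%) were above WT in Svil-KO and below it in Svil-Mut, and 2691 (17.6%) the reverse. With both fold changes past 0.25 on the log2 scale, 2708 genes (17.7%) lay on the same side, 1398 higher (9.15%) and 1310 lower (8.57%), and 796 (5.21%) on opposite sides. Past 0.5, 1228 genes (8.04%) lay on the same side, 667 higher (4.37%) and 561 lower (3.67%), and 262 (1.71%) on opposite sides. All 6 altered libraries were outside the WT range on the same side in 388 genes (2.54%), 183 above (1.2%) and 205 below (1.34%). With labels exchanged at random, a gene would separate this way in a share of 0.0238 of the 84 splits. The 2.54% is close to that share, so the number of such genes is not a sign of a shared response. Scaling the libraries to equal totals changed the split of such genes to 133 above and 288 below. It changed the split by genotype means to 4247 above and 5513 below. Under this scaling the median pooled log2 fold change of all genes moved from -0.0032 to -0.028. Of the 388 genes, 323 stayed on their side with equal totals and 332 with quantile normalization. Of the 388 genes, 363 could be placed, 354 of them on autosomes, at 1.57% (chromosome 16) to 3.7% (chromosome 13) of the genes compared on each. On chromosome 7, 3 were above and 23 below WT, and within 10 Mb of Svil there were 2 of 51, Svil below and 4833419F23Rik above. Mib1 also lies within 10 Mb of Svil but is not counted here, as its Svil-KO libraries overlapped WT. Chromosome 7 and 4833419F23Rik were singled out after their values were seen.

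The genes described next are the 12 higher and 12 lower genes with the smallest unadjusted pooled p among those with all 6 altered libraries on 1 side of WT, a mean of at least 50 and a gene symbol that is not that of a predicted gene. Apart from Svil, none of them passed over all genes with limma, while DESeq2 called 11 of the others, named at the end. The selection required separated libraries, so their separation is not a result.

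N4bp2 and Col7a1 had the smallest p among the higher genes. N4bp2, which encodes a protein that binds the ubiquitin ligase NEDD4 (GRCm38 chromosome 5, 65763521 to 65830108, plus strand), had normalized counts of 25.2, 21.2 and 36.7 in WT. They were 138, 152 and 140 in Svil-KO and 71.3, 66.8 and 82.3 in Svil-Mut. Here the Svil-KO libraries lay above the Svil-Mut libraries, whereas for Svil RNA the Svil-Mut libraries were farther from WT. The pooled log2 fold change of N4bp2 was 1.88 ± 0.26 (SE, limma adjusted p = 0.080), with 2.36 in Svil-KO and 1.41 in Svil-Mut. Its difference between the genotypes was 0.96 (95% interval 0.29 to 1.62, adjusted p = 0.341). N4bp2 overlaps the antisense gene N4bp2os, whose reads cannot be told apart from its own.

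Col7a1 encodes type VII collagen, the collagen of anchoring fibrils beneath epithelia (GRCm38 chromosome 9, 108953586 to 108984875, plus strand). Its normalized count was 27.3, 55.7 and 30.6 in WT, 127, 128 and 140 in Svil-KO and 103, 129 and 104 in Svil-Mut. Both genotypes were at a similar level, with the lowest altered library (103) above the highest WT library (55.7). The pooled log2 fold change of Col7a1 was 1.72 ± 0.27 (SE, limma adjusted p = 0.199). The genotypes differed by 0.24 (95% interval -0.46 to 0.94).

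Among metabolic and vesicle genes, Pcx and Rabgap1 were higher by small steps. Pcx encodes pyruvate carboxylase, which makes oxaloacetate from pyruvate in mitochondria. It was at 3064, 3148 and 3254 in WT, 3618, 4808 and 4122 in Svil-KO and 3842, 3940 and 3925 in Svil-Mut, a pooled log2 fold change of 0.35 ± 0.09 (SE, adjusted p = 0.813). Rabgap1, a GTPase-activating protein for Rab proteins, was at 1914, 2024 and 1847 in WT, 2471, 2281 and 2565 in Svil-KO and 2403, 2485 and 2178 in Svil-Mut (0.31 ± 0.08, adjusted p = 0.813). For both genes the WT libraries were close together and the genotypes overlapped each other.

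Fosl2, Ier5l and Zc3h12a are induced by stimuli of many kinds. Fosl2 encodes another AP-1 subunit, and Zc3h12a an endonuclease that degrades messenger RNAs of inflammatory genes. Their pooled log2 fold changes were 1.29, 1.09 and 0.91, with 0.45, 0.61 and 0.39 in Svil-KO and 2.13, 1.57 and 1.43 in Svil-Mut. Fosl2 was at 155, 154 and 174 in WT, 221, 185 and 258 in Svil-KO and 553, 1311 and 487 in Svil-Mut, so that Svil-KO replicate 3 (185) exceeded the highest WT library (174) by little. For Zc3h12a, the Svil-KO libraries (64.9 to 66.2) likewise lay just above WT (44.5 to 56.9), and the Svil-Mut libraries (120 to 145) well above.

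Of the other higher genes, Tdrkh and Ptbp3 had close means in both genotypes. Tdrkh, a tudor-domain protein of the piRNA pathway that shares exonic bases with the antisense gene Oaz3, was at 254 to 344 in WT, 459 to 520 in Svil-KO and 433 to 555 in Svil-Mut. Ptbp3, an RNA-binding regulator of splicing, was at 173 to 195, 258 to 346 and 266 to 397 in the same order. The difference between genotypes was 0.05 for Tdrkh (95% interval -0.32 to 0.41) and -0.02 for Ptbp3 (-0.47 to 0.43). Fam83d, which encodes a mitotic spindle protein, had a pooled log2 fold change of 2.09, with 1.38 in Svil-KO and 2.80 in Svil-Mut. Its normalized count ran from 51.0 to 347 in the altered libraries against 23.3 to 42.7 in WT. Ano4, of the anoctamin family, ran from 12.8 to 104 against 4.38 to 11.2, and Zfp619, a zinc finger gene, from 26.5 to 104 against 14.2 to 20.4.

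One further gene was singled out after its values were seen, since its mean is too low for the rule. Camkk1 encodes a kinase that activates calcium/calmodulin-dependent kinases. Its normalized count was 1.09, 0 and 0 in WT, 42.9, 7.13 and 38.3 in Svil-KO and 10.2, 23.9 and 45.4 in Svil-Mut. The WT libraries held at most about 1 read, and every altered library held more. Camkk1 was compared only because altered libraries reached a count of 10, so its separation and its p-values depend on that condition. The log2 fold change of Camkk1 was 4.24 in Svil-KO and 4.20 in Svil-Mut (pooled limma adjusted p = 0.383, DESeq2 adjusted p = 0.0111), and at so few reads its size depends on the pseudocount of 1.

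Among the lower genes, Rfwd3, Ints2 and Ddx54 act on nucleic acids. Rfwd3, a ubiquitin ligase of the DNA damage response, was at 189, 205 and 201 in WT, 123, 111 and 121 in Svil-KO and 117, 106 and 128 in Svil-Mut. Its level was nearly the same in both genotypes (difference 0.02, 95% interval -0.42 to 0.46) and below WT by a pooled log2 fold change of -0.75 ± 0.17 (SE, limma adjusted p = 0.813). Ints2, a subunit of the Integrator complex, which processes small nuclear RNAs, was at 336, 271 and 221 in WT, 157, 113 and 189 in Svil-KO and 139, 157 and 161 in Svil-Mut (-0.85 ± 0.21, adjusted p = 0.813). Ddx54, an RNA helicase, was at 988 to 1132 in WT, 669 to 956 in Svil-KO and 678 to 717 in Svil-Mut.

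Cryab and Myom3 are genes of the contractile apparatus and its protection. Cryab encodes alpha B-crystallin, a small heat shock protein that binds desmin and titin in muscle. It was at 20964, 26088 and 28593 in WT, 20899, 20317 and 18798 in Svil-KO and 17702, 15831 and 17223 in Svil-Mut (-0.44 ± 0.09, SE, limma adjusted p = 0.579). The highest altered library (20899) lay just below the lowest WT library (20964), and Cryab shares exonic bases with Hspb2 on the opposite strand. Myom3, a myomesin of the sarcomere's M-band, was at 656, 886 and 625 in WT, 540, 390 and 460 in Svil-KO and 221, 64.0 and 152 in Svil-Mut. The log2 fold change of Myom3 was -0.63 in Svil-KO and -2.46 in Svil-Mut.

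Enah and Fchsd2 encode proteins that promote actin assembly, Enah at the leading edge of cells and Fchsd2 at sites of endocytosis. Enah was at 455 to 579 in WT, 303 to 423 in Svil-KO and 252 to 370 in Svil-Mut, and Fchsd2 at 177 to 235, 104 to 153 and 110 to 131. Their pooled log2 fold changes were -0.63 and -0.74 (limma adjusted p = 0.815 each). Usp31, a deubiquitinating enzyme, was at 505 to 701, 384 to 439 and 417 to 442 (-0.50). Zim1, an imprinted zinc finger gene, was at 43.8, 90.1 and 55.0 in WT, 18.7, 18.3 and 18.3 in Svil-KO and 13.2, 3.82 and 7.57 in Svil-Mut, a pooled log2 fold change of -2.26 ± 0.47 (SE, adjusted p = 0.579). The 18S ribosomal RNA entry Rn18s-rs5, which an oligo(dT) primer should capture poorly, took 0.339% to 0.372% of reads in WT, 0.281% to 0.304% in Svil-KO and 0.264% to 0.320% in Svil-Mut. Its libraries overlapped WT under quantile normalization.

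**Figure D2:**
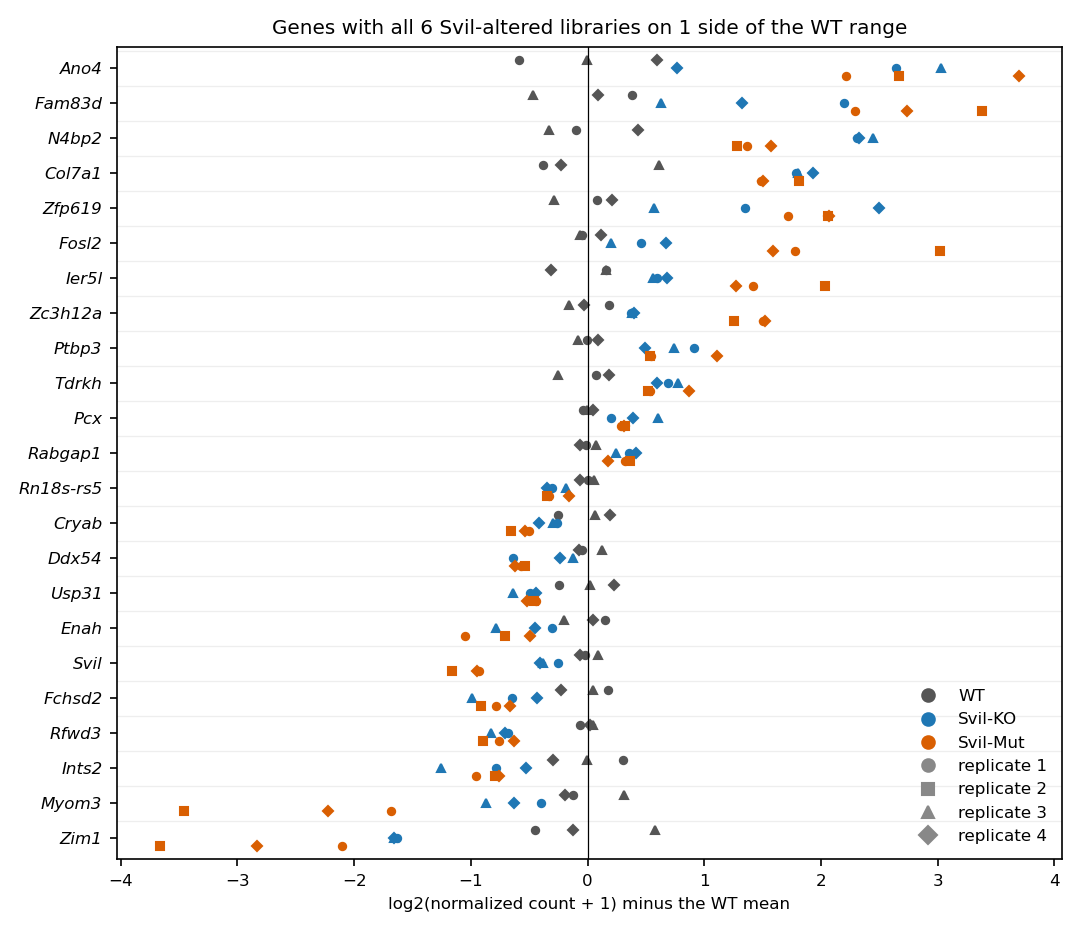
Level of the 23 reported genes in each library, as log2(normalized count + 1) minus the WT mean (horizontal axis), coloured by genotype with the replicate number as the symbol. Rfwd3, Ints2, Ptbp3 and Tdrkh were at like levels in Svil-KO (blue) and Svil-Mut (orange), whereas Myom3, Fosl2 and Zc3h12a were farther from WT in Svil-Mut.

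In 42 genes (0.275%) the genotypes lay wholly on opposite sides of the WT range, where pooling cancels. Atf3, a stress-induced transcription factor, was at 267, 201 and 211 in WT, 121, 72.4 and 132 in Svil-KO and 933, 1246 and 771 in Svil-Mut. Its log2 fold change was -1.09 in Svil-KO and 2.10 in Svil-Mut, and the difference of -3.19 passed (limma adjusted p = 0.000628). Cluh, which binds messenger RNAs of mitochondrial proteins, was at 6026 to 6784 in WT, 7472 to 7720 in Svil-KO and 5238 to 5957 in Svil-Mut. Slc35b1, an adenine nucleotide exchanger of the endoplasmic reticulum, was lower in Svil-KO (2002 to 2223) and higher in Svil-Mut (2797 to 3221) than in WT (2330 to 2369). Iigp1, an interferon-inducible GTPase, was at 216 to 329 in WT, 154 to 216 in Svil-KO and 375 to 396 in Svil-Mut. The differences between genotypes did not pass for Cluh (adjusted p = 0.0845), Slc35b1 (0.130) or Iigp1 (0.142).

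The promoters of genes on 1 side of WT were searched for 4 short motifs of factors named by the gene lists. RefSeq promoters, 250 bases before to 50 after each transcription start on GRCm38.p6, were found for 10801 of the genes compared. The E-box CACGTG, which circadian clock factors and other basic helix-loop-helix proteins can bind, was found in the promoter of 30 of 138 genes with all 6 altered libraries above WT (21.7%). It was found in 9 of 140 with all 6 below (6.43%) and in 11.6% of all 10801. With equal totals the shares were 23.1% above and 10.3% below, and with quantile normalization 21.8% and 8.81%. With promoters split by GC content into 3 parts, the E-box was in 13.6% above, 5.88% below and 9.6% of all at low GC, in 28.9%, 6.56% and 12.6% at middle GC, and in 22.4%, 7.14% and 12.5% at high GC. The cAMP response element TGACGTCA was in 3.62% above, 0% below and 3.43% of all, the AP-1 motif TGANTCA in 5.07%, 6.43% and 6.3%, and the serum response element known as the CArG box in 2.9%, 1.43% and 1.62%. Both strands were searched, none of the 4 motifs contains another, and a gene counted once whatever its number of starts. The E-box was singled out after these shares were seen, the shares have no test, and a match is not evidence of binding.

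Of the described genes with all 6 libraries on 1 side, Pcx, Rabgap1 and Zfp619 (above WT) and Usp31 (below WT) held an E-box within the 250 bases before a start. These sequences are shown to place the motif in its context. They are given 5′ to 3′ in the direction of transcription, in lower case with the E-box in capitals. It begins 248 bases before the start in Pcx, 25 in Rabgap1, 185 in Zfp619 and 22 in Usp31, and the windows of Zfp619 and Usp31 also hold a CArG box and an AP-1 motif, respectively. N4bp2, Col7a1 and Camkk1 were not among the genes above WT with an E-box in the promoter window. More distant bases and inexact matches were not searched, so these genes may still hold such elements.
Pcx (chr19:4510222-4510471, plus strand): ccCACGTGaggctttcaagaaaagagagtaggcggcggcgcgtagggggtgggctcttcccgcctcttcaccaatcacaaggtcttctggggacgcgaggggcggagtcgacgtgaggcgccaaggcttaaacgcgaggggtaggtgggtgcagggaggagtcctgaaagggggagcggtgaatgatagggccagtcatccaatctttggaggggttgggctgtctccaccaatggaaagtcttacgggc
Rabgap1 (chr2:37452004-37452253, plus strand): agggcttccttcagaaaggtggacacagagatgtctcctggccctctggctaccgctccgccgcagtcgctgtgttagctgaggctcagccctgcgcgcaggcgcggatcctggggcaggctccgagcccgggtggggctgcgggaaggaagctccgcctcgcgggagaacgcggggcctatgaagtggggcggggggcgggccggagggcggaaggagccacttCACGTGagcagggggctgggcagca
Zfp619 (chr7:39517516-39517765, plus strand): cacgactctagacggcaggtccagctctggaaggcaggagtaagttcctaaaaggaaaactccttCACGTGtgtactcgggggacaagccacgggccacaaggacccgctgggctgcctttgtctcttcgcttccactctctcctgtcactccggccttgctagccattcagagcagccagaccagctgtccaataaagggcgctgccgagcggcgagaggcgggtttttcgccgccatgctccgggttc
Usp31 (chr7:121707443-121707692, minus strand): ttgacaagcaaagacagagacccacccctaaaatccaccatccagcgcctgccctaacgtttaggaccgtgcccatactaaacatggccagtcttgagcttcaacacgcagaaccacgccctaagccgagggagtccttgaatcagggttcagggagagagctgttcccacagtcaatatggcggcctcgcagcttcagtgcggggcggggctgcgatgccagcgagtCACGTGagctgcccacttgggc

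Gene lists were then described by the number of members on each side of WT in both genotypes, to be read beside the 31.7% above and 31.8% below over all genes, and by their median log2 fold change, which over all genes was -0.0032. Among the list members Svil and Fos passed the pooled limma test, and no other member did. When each library was left out in turn, the median of 1 of the 21 lists described, immediate early genes, stayed within 1.5 times of its value, and the medians of 3 lists changed sign. The medians of the other lists moved by more than that with at least 1 library left out. Of 7 genes of the villin and gelsolin family, 4 were below WT in both genotypes and 2 above (median -0.24, but -0.014 without WT replicate 3 and -0.42 without WT replicate 4). The 4 below include Svil itself, the altered gene, which also enters the median. Scin, which encodes the actin-severing protein scinderin, was above WT in all 6 altered libraries, at 77.7, 104 and 101 in WT, 114, 120 and 162 in Svil-KO and 135, 131 and 211 in Svil-Mut (pooled log2 fold change 0.60, limma adjusted p = 0.832). Gsn, the gene of gelsolin, was at 20482 to 35703 in WT, 20891 to 23353 in Svil-KO and 16862 to 25313 in Svil-Mut and overlapped.

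Of 30 genes of supervillin partners, actin and myosin II, 13 were below WT in both genotypes and 4 above (median -0.058). Myl12a and Myl9, regulatory light chains of myosin II, had pooled log2 fold changes of -0.26 and -0.20, at like levels in Svil-KO (-0.24 and -0.20) and Svil-Mut (-0.28 and -0.21), with libraries that overlapped WT. Actg1, cytoplasmic gamma actin, was at 943 to 1127 in WT, 1061 to 1081 in Svil-KO and 1480 to 2573 in Svil-Mut. Of 37 genes of costameres, the dystrophin complex and integrins, 15 were above WT in both genotypes and 7 below (median 0.034, 0.0095 without WT replicate 4). Sntb1, which encodes a syntrophin of the dystrophin complex, was above WT in all 6 altered libraries, at 85.0 to 133 in WT, 166 to 262 in Svil-KO and 138 to 319 in Svil-Mut, but not with equal totals.

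Insulin signalling genes were spread over both sides. Of 42 genes from the insulin receptor to Akt, 16 were above WT in both genotypes and 10 below, and none had all 6 libraries on 1 side. The pooled median was 0.10, above the medians of Svil-KO (0.05) and Svil-Mut (0.06). It was 0.06 to 0.09 when single libraries were left out. Irs2, an adaptor of the insulin receptor, was at 1119, 1116 and 972 in WT, 1738, 1312 and 1105 in Svil-KO and 1699, 4855 and 4645 in Svil-Mut. Svil-KO replicate 4 (1105) lay within the WT range and the other altered libraries above it. The pooled log2 fold change of Irs2 was 1.01 ± 0.29 (SE, limma adjusted p = 0.822), and without Svil-Mut replicate 1 it passed (adjusted p = 0.0213). Irs1, the other main adaptor in muscle, was at 439 to 582 in WT, 548 to 917 in Svil-KO and 668 to 1122 in Svil-Mut (0.60, adjusted p = 0.832).

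Slc2a4, the gene of the insulin-regulated glucose transporter GLUT4, was at 28896, 26268 and 29029 in WT, 29811, 32273 and 30404 in Svil-KO and 30466, 30225 and 30750 in Svil-Mut. All 6 altered libraries were above WT by a small margin, with a pooled log2 fold change of 0.13 ± 0.06 (SE, limma adjusted p = 0.832), and with equal totals they overlapped WT. Of 28 genes of GLUT4 and its trafficking, 10 were above WT in both genotypes and 3 below (median 0.029). Of 19 genes of glycogen metabolism the counts were 7 and 1 (median 0.053).

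Of 72 nuclear-encoded genes of the respiratory chain, 57 were below WT in both genotypes (79.2%) and 0 above. In 21 (29.2%) the unadjusted pooled p was under 0.05, all of them lower, as it was for 2.54% of all genes, and none passed after adjustment. The median was -0.14 (-0.08 without WT replicate 4), with -0.06 in Svil-KO and -0.22 in Svil-Mut, so most single genes lay below WT by little. In all, 7 members (9.72%) were below WT in all 6 altered libraries, beside 205 of all 15279 genes (1.34%). They were Ndufb6, Ndufb11 and Ndufv3 of complex I, Uqcr11 of complex III, Cox5b and Cox7a2 of complex IV, and Atp5j2 of ATP synthase. With equal totals the count in this list was 14, without Ndufb11, and with quantile normalization 11, without Atp5j2. Over all genes the count also rose, from 205 to 288 with equal totals and to 227 with quantile normalization. Ndufb6 was at 6523, 6254 and 6991 in WT, 5999, 5730 and 5930 in Svil-KO and 5485, 5719 and 5024 in Svil-Mut (-0.22 ± 0.07, SE, limma adjusted p = 0.832). Uqcr11 was at 18636 to 20936, 17353 to 18346 and 15685 to 16979. Taken by library, the median of the list above the WT mean was -0.06 to 0.11 in WT, -0.08 to -0.03 in Svil-KO and -0.34 to -0.12 in Svil-Mut. Svil-KO thus overlapped WT on this measure, and Svil-Mut did not. Whether there were fewer mitochondria-rich fibres or less of these RNAs in each fibre cannot be told apart in whole muscle.

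**Figure D3:**
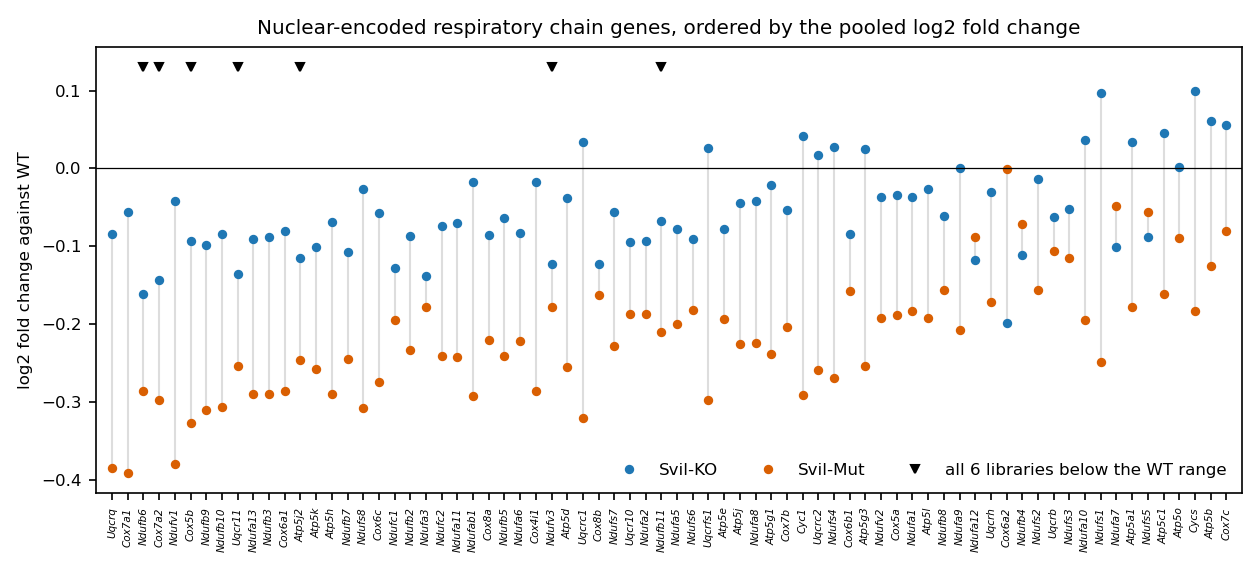
Log2 fold change against WT (vertical axis) of the 72 nuclear-encoded respiratory chain genes in Svil-KO (blue) and Svil-Mut (orange), ordered by the pooled value. Both points are below 0 for 57 genes, and triangles mark the 7 genes with all 6 altered libraries below the WT range.

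Other mitochondrial lists had unlike medians in the genotypes. Of 13 protein genes of the mitochondrial genome, 5 were below WT in both genotypes and 0 above, with medians of 0.07 in Svil-KO and -0.47 in Svil-Mut (pooled -0.20, -0.12 without Svil-Mut replicate 4). All mitochondrial transcripts took 5.32% to 6.51% of reads in WT, 5.87% to 6.56% in Svil-KO and 3.93% to 5.03% in Svil-Mut. Of 33 genes of pyruvate dehydrogenase and the citric acid cycle, 10 were below WT in both genotypes and 1 above (0.03 in Svil-KO, -0.21 in Svil-Mut). Pdk4, the kinase that inhibits pyruvate dehydrogenase, was at 17331 to 52686 in WT, a range that Svil-KO shared (17239 to 52098), and at 5976 to 11614 in Svil-Mut. Of 35 genes of fatty acid uptake and oxidation, 11 were below and 6 above (0.04 and -0.34, pooled -0.17, -0.10 without WT replicate 4). Cpt1a, an enzyme that commits fatty acids to mitochondrial oxidation, was at 456, 355 and 529 in WT, 394, 282 and 297 in Svil-KO and 239, 187 and 257 in Svil-Mut (-0.71 ± 0.18, SE, limma adjusted p = 0.813). One Svil-KO library overlapped WT for Cpt1a.

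Slow fibre genes had unlike medians in the genotypes. Of 18 genes of the slow fibre sarcomere and myoglobin, 6 were below WT in both genotypes and 1 above, with a median of 0.22 in Svil-KO and -0.84 in Svil-Mut. By library, the list's median above the WT mean was 0.67, -0.18 and -0.02 in Svil-KO replicates 1, 3 and 4 and -0.38, -2.15 and -0.12 in Svil-Mut replicates 1, 2 and 4, so 1 library stood apart in each genotype. Leaving out those libraries moved the pooled median of -0.09 to -0.46 (Svil-KO replicate 1) or to 0.14 (Svil-Mut replicate 2). Myoz2, a Z-disc protein of slow fibres, was below WT in all 6 altered libraries, at 1740, 1538 and 1669 in WT, 1508, 1007 and 1281 in Svil-KO and 583, 186 and 1125 in Svil-Mut (-1.06 ± 0.42, SE, limma adjusted p = 0.832). Csrp3, which encodes muscle LIM protein, was at 1683 to 4495, 1351 to 1837 and 146 to 1001. Of 20 genes of the fast fibre sarcomere, 5 were above WT in both genotypes and 5 below, with a median (0.011) that changed sign between libraries left out.

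Of 30 immediate early genes, 22 were above WT in both genotypes (73.3%), 0 below and 8 on opposite sides. In 20 the unadjusted pooled p was under 0.05, all of them higher, as it was for 3.28% of all genes, and Fos passed after adjustment. The median was 0.15 in Svil-KO and 1.80 in Svil-Mut. By library, the list's median above the WT mean was 0.57 in Svil-KO replicate 1, -0.10 and -0.02 in the other Svil-KO libraries, and 1.40 to 2.22 in Svil-Mut, against -0.06 to 0.08 in WT. Without its replicate 1, Svil-KO thus overlapped WT or lay just below it. Nr4a1, a nuclear receptor, was at 6193 to 6961 in WT, at 13696, 7665 and 6885 in Svil-KO replicates 1, 3 and 4, and at 15469 to 22784 in Svil-Mut. Dusp1, a phosphatase of MAP kinases, was at 3983 to 4502 in WT, 4170 to 4572 in Svil-KO and 7146 to 8845 in Svil-Mut, and its difference between the genotypes passed (-0.88, limma adjusted p = 0.0047).

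Clock and p53 genes were more often above WT in both genotypes than below, and antioxidant genes were near the share of all genes. Of 21 clock genes 13 were above WT in both genotypes and 2 below (median 0.14, 0.09 without Svil-Mut replicate 4), with no gene outside the WT range in all 6 libraries. Cry1, a repressor of the clock, was at 631 to 889 in WT, 878 to 1041 in Svil-KO and 820 to 1026 in Svil-Mut. Of 20 p53 targets and growth arrest genes 13 were above and 3 below (median 0.21, 0.12 without WT replicate 4). Ccng1, cyclin G1, was above WT in all 6 altered libraries, at 40490, 42275 and 39623 in WT, 48992, 44548 and 47011 in Svil-KO and 44261, 53833 and 47970 in Svil-Mut (0.23 ± 0.07, SE, limma adjusted p = 0.832). Cdkn1a, the cell cycle inhibitor p21, was above WT too, at 350 to 484, 496 to 532 and 658 to 1379. Of 26 antioxidant genes, 8 were above (30.8%) and 6 below (23.1%). Among them were Nfe2l2, the transcription factor NRF2 (1660 to 1814, 2019 to 2310 and 1875 to 3287), and Keap1, its inhibitor (3206 to 3417, 3525 to 3646 and 3535 to 3570), both above WT in all 6 altered libraries but not with equal totals.

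Matrix, connective tissue and adipocyte genes lay below WT in both genotypes more often than above. Of 36 collagen and matrix genes, 18 were below and 7 above (median -0.15, -0.06 without WT replicate 3 and -0.25 without WT replicate 1). WT replicate 3 was the one WT library with a high list median (0.28, against -0.17 and -0.10). Of 14 markers of fibro-adipogenic progenitors, the connective tissue cells of muscle, 13 were below and 0 above (median -0.18), with medians of -0.17 in Svil-KO and -0.18 in Svil-Mut. Without WT replicate 3 the pooled median was -0.02, and without WT replicate 4 it was -0.35. Their summed normalized count was 48848 to 72148 in WT, 49268 to 52181 in Svil-KO and 39450 to 53856 in Svil-Mut. The ranges overlapped, and WT replicate 3 gave the highest value. Of 13 adipocyte markers, 7 were below and 0 above (median -0.21, -0.53 without WT replicate 3), with Adipoq, the gene of adiponectin, at 72.2 to 139, 19.1 to 86.9 and 1.02 to 117. Of 8 red blood cell genes, 2 were above and 1 below (median 0.56, 0.13 without Svil-Mut replicate 4), and their sum was 9166 to 13242 in WT, 7079 to 11065 in Svil-KO and 10717, 19653 and 53916 in Svil-Mut replicates 1, 2 and 4. The part of these cells in the lists above was not tested.

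Of 11 satellite cell genes, 6 were below WT in both genotypes and 3 above (median -0.12, 0.07 without WT replicate 1). Calcr, the calcitonin receptor, which marks quiescent satellite cells, was at 49.2, 15.2 and 12.2 in WT, 0, 0 and 2.39 in Svil-KO and 0, 0 and 0 in Svil-Mut. It was lower in all 6 altered libraries, at few reads (limma adjusted p = 0.671, DESeq2 adjusted p = 0.0206). Myf5, another gene of these cells, was at 39.5 to 50.3 in WT, 8.77 to 42.8 in Svil-KO and 11.5 to 27.4 in Svil-Mut and overlapped.

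**Figure D4:**
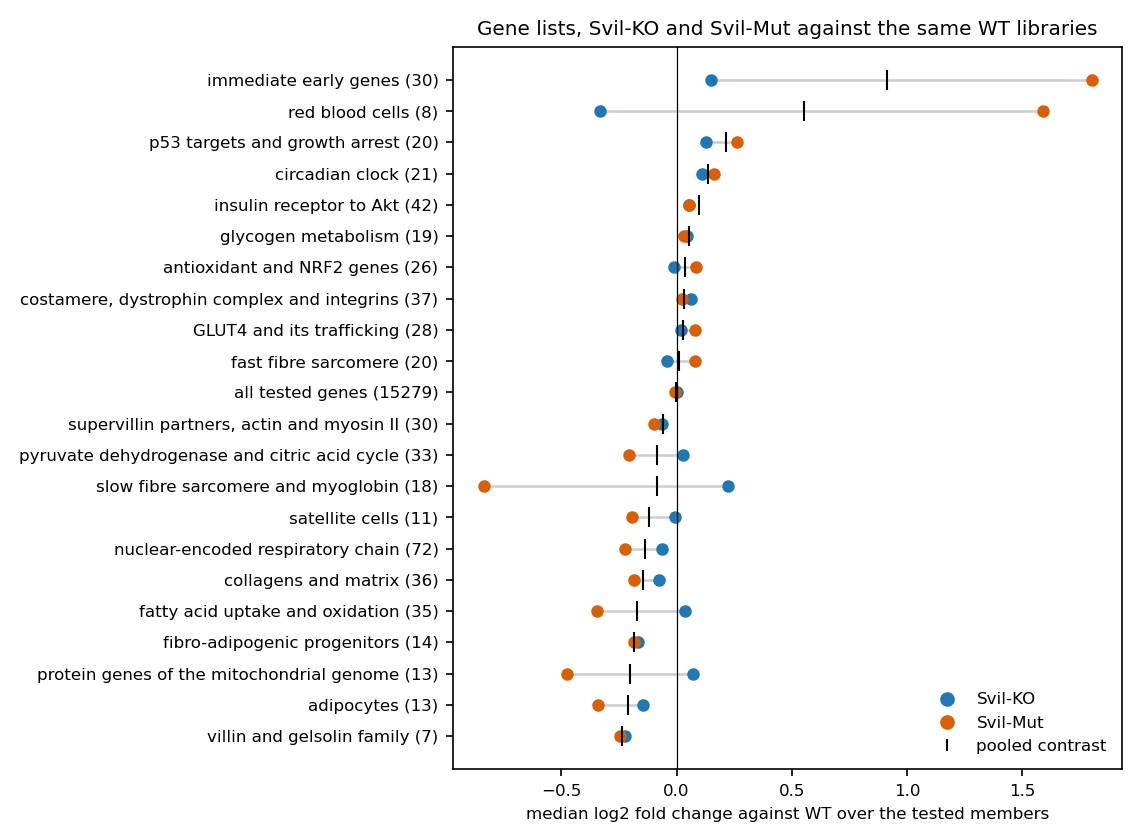
Median log2 fold change against WT (horizontal axis) over the tested members of 21 gene lists (number in parentheses) and of all genes, in Svil-KO (blue), in Svil-Mut (orange) and in the pooled contrast (black bar). Fibro-adipogenic progenitors, the villin family (which includes Svil) and the clock had like medians in both genotypes, and immediate early, slow fibre and mitochondrial genome lists did not.

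The pooled comparison was also run with count models. On the recovered reads edgeR called 3 (0.0196%) and DESeq2 called 23 of 15264 (0.151%), 14 higher (0.0917%) and 9 lower (0.059%). Of those 23, 14 (60.9%) had all 6 altered libraries outside the WT range, 8 above (34.8%) and 6 below (26.1%). Over all genes this share was 2.54%. The calls were made from the same 9 libraries, which favours genes with separated libraries, so the 60.9% is not a sign of a shared response. The 8 above were N4bp2, Fam83d, Col7a1, Fosl2, Ier5l, Camkk1, Ano4 and Tdrkh, and the 6 below Svil, Myom3, Cryab, Zim1, Calcr and Rn18s-rs5. Camkk1 and Calcr were compared only through the altered and the WT libraries, respectively, where they were high. Fos, Mib1, Dusp1 and Csrnp1, also among the 23, had larger fold changes in Svil-Mut than in Svil-KO and libraries that overlapped WT in Svil-KO.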

How the data were processed

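Poly(A)-primed RNA of 9 muscles was sequenced as 1 library each. Per the submitters' processing notes, HISAT2, featureCounts and DESeq2 were used on mm10. The versions, settings and annotation were not given in the sources used here. Values deposited by the authors are a signal per gene, the read count divided by a size factor, as the values show: 100% of nonzero values were whole multiples of 1 step per library within 0.002. Multiplying back gave whole reads. Size factors do not correct for transcript length, and they assume that most genes do not differ. Reads carried no described molecular identifiers and are not independent molecules.

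From the deposited values, limma 3.58.1 (R 4.3.3) was fitted to log2(normalized count + 1) with genotype as a 3-level factor over all 9 libraries and a mean-variance trend. The pooled contrast was the mean of Svil-KO and Svil-Mut minus WT. Fold changes on this scale understate those of low genes. Groups came from the genotype label, and titles gave the replicate numbers. The numbers were not used to pair the mice in the main fit. Over 7 same-numbered pairs, deviations from the group means correlated at -0.056 to 0.044, which does not exclude a pairing. edgeR 4.0.16 and DESeq2 1.42.0 were run on the recovered reads. Other alternatives were pseudocounts of 0.5 and 10, other filters, equal totals, quantile normalization, other variance models, library weights, a fit of the altered libraries as 1 group, a replicate block, an adjusted p of 0.10 and leaving out each library. The steps were tested on simulated data.

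The comparison, its members and the 44 gene lists were chosen with earlier results of these data known, and the 21 lists described were picked after their values were seen. Named genes were Svil, the genes called, the 12 higher and 12 lower genes under the conditions given in the text, the 4 genes on opposite sides of WT with the smallest p for the genotype difference, and up to 4 members of each described list by pooled p. Of the genes this rule takes, 2 are not reported here. Positions are from GENCODE M21 on GRCm38, matched by symbol for 95.8% of genes. This annotation need not be the authors' own. Promoters are from RefSeq. Figures were drawn with matplotlib 3.10.9 in Python 3.11.15.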

Additional observations from a re-analysis of the deposited data

Results flagged for a closer look

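The effect of the genotypes against WT differed, by the limma test of Svil-KO against Svil-Mut, for Svil (log2 difference 0.67), Mib1 (3.73), Fos (-3.48), Atf3 (-3.19) and Dusp1 (-0.88). Among the 6 Svil-altered libraries, 1 library stood apart from the others in 5 of 109 named genes, by its gap to the nearest library as a share of the whole range. Chance marks about 1 in 20 genes this way. These were Slc2a3, a glucose transporter, in Svil-KO replicate 4 (normalized count 248, share 0.790), and Calcr in the same library (2.39 with the other libraries at 0, share 1). In Svil-Mut replicate 2 they were Ankrd2, a stretch-responsive muscle gene (628, share 0.647), and Sdc4, a syndecan (1780, share 0.666). In Svil-Mut replicate 4 it was Col6a2, a chain of collagen VI (514, share 0.706).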

How the results depend on the processing

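The pooled count of 3 genes was 1 without the variance trend (Cdcp1), 0 with the altered libraries as 1 group, 23 with DESeq2, and 1 to 4 when single libraries were left out. It was 1 (Mib1) without WT replicate 3, and Gm13339 was called without WT replicate 1. The replicate block gave 2 (Fos and Mib1), with Svil at -0.64 (adjusted p = 0.117). An adjusted p of 0.10 gave 4, adding N4bp2. The Svil fold change stayed at -0.68 without the trend (adjusted p = 0.168) and as 1 group (0.930). It ranged from -0.71 to -0.64 when single libraries were left out. Mib1 and Fos were lost without the trend (adjusted p = 0.0778 each) and as 1 group (0.930 each). The count of genes differing from WT in both genotypes was 0 under every alternative run. Named genes differing between the genotypes numbered 5, but 3 without the trend, 3 with the replicate block, 26 with DESeq2 and 3 to 6 when single libraries were left out (3 without Svil-KO replicate 4). Genes on the same side of WT numbered 16417 with no filter, against 9700 of 15279, and 9132 to 10246 when single libraries were left out. These settings compared different numbers of genes, so the counts do not show a change in the share on the same side. The 388 genes with all altered libraries on 1 side became 546 to 1122, most without WT replicate 1 (1122), 3 (1055) or 4 (1022), followed by Svil-KO replicate 4 (615), Svil-KO replicate 3 (589) and Svil-Mut replicate 4 (589). Fewer libraries have to be separated in these counts. Directions reversed for uncalled genes: Myh4 (-0.016) with quantile normalization, and Cluh with library weights (0.0058) and when single libraries were left out (-0.053 to 0.032). The fold change of Atp2a1 was 0 with quantile normalization, so it had no direction there. Where no cause is named, the cause was not tested. With 3 mice per genotype, genes at low counts, such as Camkk1, Calcr and Zim1, have the least precise values.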
